A study of Homo sapiens with 9 samples.

Results

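The comparison described here set 3 RNA-seq libraries of TE13 cells transfected with PARylator siRNA.1 against 3 libraries of TE13 cells transfected with control siRNA. TE13 is an established cell line of esophageal squamous cell carcinoma (ESCC), an epithelial cancer of the esophagus. PARylator is the study's name for the long noncoding RNA LINC00885 (ENSG00000224652, chr3:196142525-196160893 on GRCh38, plus strand), which lies on the distal long arm of chromosome 3. An siRNA is a short double-stranded RNA that directs the cleavage of a matching transcript, and the study targeted LINC00885 with siRNA.1 and, separately, with siRNA.2 to follow changes of the transcriptome. All cells carried the genome of this one line, both groups were transfected with an siRNA, and the replicates were separate biological replicates per the series' design text. The siRNA numbers used here are those of the library labels, and whether each label belongs to the siRNA sequence of the same number was not tested, so siRNA.1 and siRNA.2 name groups of libraries. Genes were taken as members where their mean over these 6 libraries was at least 0.1 FPKM (fragments per exonic length, scaled to each library's total), which left 21402 of the 60605 genes in the table, 17375 of them with a symbol. The 6 libraries had at least 1 count in 31114 genes.

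Several of the programs described here have well-known biology. Interferons are secreted proteins that bind receptors on neighbouring cells, activate JAK kinases and STAT transcription factors and switch on antiviral genes, and a cell makes them after its sensors meet foreign nucleic acid, including double-stranded RNA. Squamous epithelia of the esophagus are built from basal keratinocytes that express KRT5 and mature under factors such as SOX2 and ZNF750. The integrated stress response couples shortage of amino acids and other stresses to the transcription factor ATF4, whereas the SREBP factors adjust sterol and fatty acid synthesis to the lipid content of membranes.

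The libraries held from 15337917 to 17899074 counts on genes in the control group and from 15374616 to 17762752 with siRNA.1. Replicates of a group differed by more than counting noise, and the first principal component, which separated the siRNA.1 from the control libraries, held 37.4% of the variance. LINC00885 itself was sparse. Its counts were 6, 7 and 12 in the control libraries and 4, 5 and 2 with siRNA.1, and the groups did not overlap. The log2 fold change was -1.21 with a standard error (SE) of 0.87 and an adjusted p of 0.334 in edgeR's quasi-likelihood test with Benjamini-Hochberg adjustment, so the difference in the targeted RNA did not pass the test at this depth. PARP1, the enzyme that builds poly(ADP-ribose) at DNA breaks and that the study connects to PARylator, was measured at 19.1, 19.7 and 19.3 FPKM in the control libraries and 18.9, 17.6 and 18.05 FPKM with siRNA.1. It fell by 0.12 on the log2 scale (SE 0.04, edgeR adjusted p 0.0215), and the lowest control library was only slightly above the highest siRNA.1 library. XRCC1, the scaffold of single-strand break repair, had a log2 fold change of 0.15 (edgeR adjusted p 0.222). FOXA1, a forkhead factor that the study places upstream of PARylator, was at 7.43, 8.2 and 7.25 FPKM in the control libraries and 5.75, 5.22 and 5.7 FPKM with siRNA.1. Its level fell by 0.48 on the log2 scale (edgeR adjusted p 2.74e-06).

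Markers of other cell types were low throughout, while the 12 squamous epithelial markers together summed to between 792 and 803 FPKM in control libraries and between 719 and 751 FPKM with siRNA.1. The 8 myeloid markers listed, of which 6 were tested, summed to between 0.99 and 1.71 FPKM in control libraries and between 6.11 and 6.3 FPKM with siRNA.1, and 4 of the 6, LYZ, FCER1G, CD68 and CSF1R, were higher. Summed T cell markers were at 0.53 to 0.79 FPKM in control libraries and 0.46 to 0.64 FPKM with siRNA.1, pan-leukocyte markers at 12.1 to 12.6 and 11.4 to 12.1 FPKM, and fibroblast markers at 2.3 to 2.52 and 1.53 to 1.72 FPKM. The endothelial markers VWF and CDH5 fell by 2.15 and 0.58 on the log2 scale. CDH5 was at 0.74, 0.96 and 0.85 FPKM in the control libraries and 0.39, 0.74 and 0.62 FPKM with siRNA.1. The endothelial marker KDR and the B cell marker MS4A1 were at 0 FPKM in all 6 libraries. The share of counts on mitochondrially encoded genes was between 7.455% and 7.656% in control libraries and between 4.993% and 5.062% with siRNA.1. In bulk RNA, fewer cells of a type and less RNA per cell cannot be told apart.

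Against this background, 6310 genes passed the test, 29.5% of those tested, and the changes were balanced in direction. Of these, 3128 genes were higher with siRNA.1 (14.6% of those tested) and 3182 were lower (14.9%). The median log2 fold change over all tested genes was -0.0044, with quartiles at -0.30 and 0.32. Most changes were small, with a median of 0.41 among the genes that rose and -0.39 among those that fell. A change of at least 1 on the log2 scale was found for 486 genes that rose (2.27%) and 328 that fell (1.53%). In what follows, a value beside a gene or after "rose by" or "fell by" is a log2 fold change unless FPKM is named, and a median of a list is one of log2 fold changes. The FPKM values of the groups did not overlap for 8065 genes (37.7%). Of the calls 49.6% were higher here, against 55.1% in edgeR with library totals alone and 56.7% in limma on log2(FPKM + 0.1). Limma on FPKM rescaled to the same sum gave 3656 higher and 1329 lower genes, 73.3% of its calls being higher, and moved the median of all genes by 0.10. Values given below for rescaled FPKM are from that limma fit, which differs from the edgeR fit in its test as well as its scaling. The rescaled sum includes the mitochondrially encoded genes, which fell in FPKM with siRNA.1. With those genes left out, edgeR gave 3092 higher and 3203 lower genes, 49.1% of its calls being higher. The part of the mitochondrially encoded genes in the rescaled values was not tested.

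**Figure D1:**
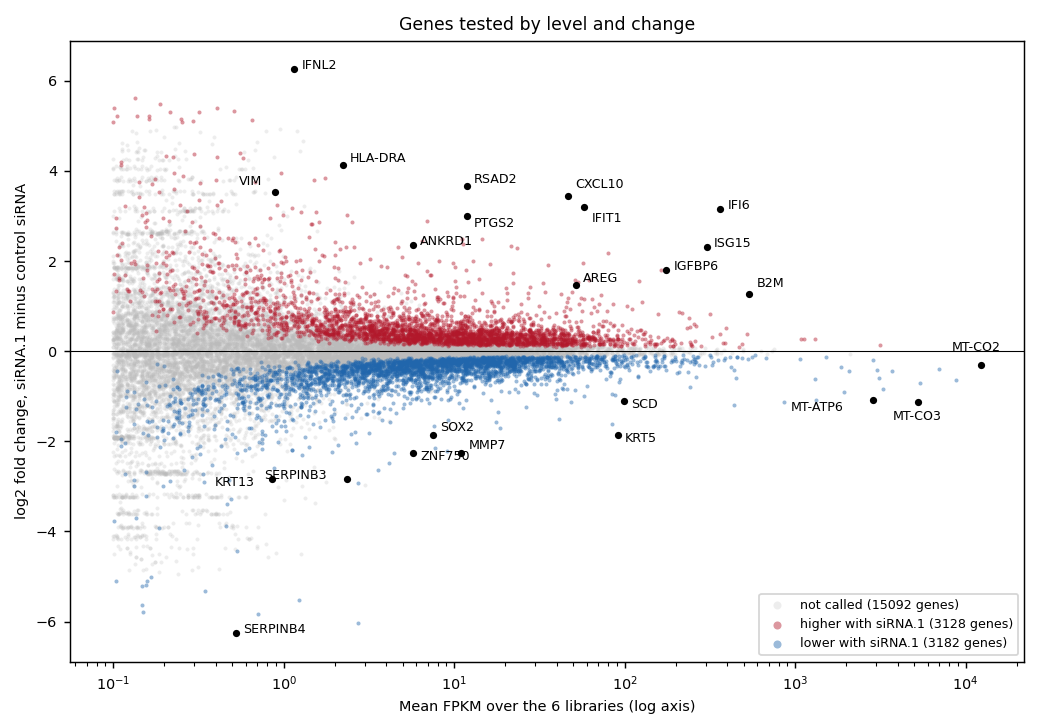
Each point is a gene tested, placed by its mean level over the 6 libraries (FPKM, log axis) and its log2 fold change of siRNA.1 against control siRNA, with genes called higher in red, lower in blue and labelled genes in black. Most of the 6310 genes called lie within 1 log2 unit of no change, and the widest changes are among genes of low to middle level.

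The share of genes called moved with depth. Among genes with a mean count under 10 the share called was 1.61%, and it was 19.3% from 10 to 100 counts, 42.5% from 100 to 1000 and 58.1% at 1000 or more. Among genes with a mean of at least 100 counts, exonic length moved with direction, as 27.9% of those in the lowest quartile of length were higher and 19% lower, against 19.7% and 30.5% in the highest. Protein-coding genes were called more often (41.9%) than long noncoding RNAs (9.23%), among which 268 were higher and 133 lower of 4344 tested. The part of length and depth in the results below was not tested.

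Among genes of at least 1 FPKM, the widest increases were in the type III interferons IFNL1, IFNL2 and IFNL3, described below, and in HLA-DRA, RSAD2, CXCL10, IFIT1, IL13RA2, IFI6, GMPR and LYZ, with log2 fold changes between 3.08 and 4.12 for these 8. The small nucleolar RNA SNORA2A, with 1 count over the control libraries and 20 with siRNA.1, completed the 12 (ratio 19.3, 95% counting interval 3.09 to 800). HLA-DRA, RSAD2, CXCL10, IFIT1 and IFI6 are known to respond to interferon. Among the largest gains in FPKM were IFI6, an interferon-induced mitochondrial protein, at 79.55, 75.7 and 62.5 FPKM in the control libraries and 689, 619 and 663 FPKM with siRNA.1, and B2M, the light chain of class I molecules, at 316, 316 and 307 FPKM in the control libraries and 772, 745 and 768 FPKM with siRNA.1. The groups were far apart for both of these. IGFBP6, a secreted protein that binds insulin-like growth factor 2, was at 72.8, 79.9 and 78.9 FPKM in the control libraries and 292, 261 and 269 FPKM with siRNA.1, a log2 fold change of 1.80. PTGS2, the inducible cyclooxygenase that makes prostaglandins, was at 3.09, 2.22 and 2.52 FPKM in the control libraries and 19.7, 22.02 and 21.7 FPKM with siRNA.1.

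Several of the widest decreases were in genes of stratified squamous epithelium. SERPINB3, S100A8, ZNF750, MMP7, SERPINB13, WNT4, CALML5 and TJP3 had log2 fold changes between -2.84 and -2.20. The rest of the 12 were short or repeated transcripts, the pseudogenes RNA5SP203, RNA5SP18 and HMGB1P1 and the miRNA precursor MIR3972, whose reads are uncertain and which poly(A) libraries capture poorly. MIR3972 had 23 counts over the control libraries and 0 with siRNA.1, at least 2.68-fold lower against a floor of 3 counts per library. KRT5, the basal keratin, was at 134, 151 and 143 FPKM in the control libraries and 40.9, 42.2 and 36.8 FPKM with siRNA.1, so that the highest siRNA.1 library lay below the lowest control library by a wide margin. In FPKM the 12 largest losses were all in mitochondrially encoded genes, led by MT-CO3, a mitochondrially encoded subunit of cytochrome c oxidase, at 6880.0, 7097 and 7540.0 FPKM in the control libraries and 3393, 3296 and 3317 FPKM with siRNA.1.

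The interferon response was the widest group of increases. Type III interferons, which signal through IFNLR1 and IL10RB on epithelial cells, rose from very low levels. IFNL1 was at 0.67, 0.25 and 0.58 FPKM in the control libraries and 2.32, 4.45 and 5.76 FPKM with siRNA.1, a log2 fold change of 3.01 (SE 0.40, edgeR adjusted p 1.37e-12). IFNL3 had a log2 fold change of 3.84, and its near-identical copy IFNL2 went from 1 count over the 3 control libraries to 110 counts with siRNA.1, a ratio of 106 (95% counting interval 18.7 to 4.23e+03). Reads can be split between these copies, so the values of each are uncertain. The type I interferon IFNB1 had counts of 2, 1 and 1 in the control libraries and 4, 11 and 13 with siRNA.1, and its log2 fold change of 2.63 gave an edgeR adjusted p of 0.0404. IFNL2, at a mean of 0.02 FPKM in the control libraries, entered the test only through the siRNA.1 libraries. No count over the list of interferon ligands and receptors is therefore given. Among the receptor chains, IFNLR1 was at 0.01 and IFNAR1 at -0.08 on the log2 scale, neither of which passed the test, while IL10RB fell by 0.42.

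Downstream of the receptors, USP18, which removes ISG15 from proteins and dampens the receptor, rose by 2.34 on the log2 scale. TYK2, a kinase of the same receptor, fell by 0.42, and 5 of 15 signalling genes were higher and 4 lower. Nucleic acid sensors rose more widely, with 9 of 15 higher and 1 lower (MAVS, -0.41). The RNA sensors IFIH1 (1.74) and DDX58 (1.13) and the nucleic acid sensors ZBP1 (2.13) and IFI16 (1.09) were among those that increased, whereas CGAS (0.03) and STING1 (0.18) did not pass the test.

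Antiviral effector genes were raised almost throughout, with 32 of 38 higher, 5 lower and a median log2 fold change of 1.42. RSAD2, which makes a chain-terminating nucleotide, was at 1.89, 1.7 and 1.57 FPKM in the control libraries and 22.1, 22.6 and 21.4 FPKM with siRNA.1, 12.6 times the control level in the fit. IFIT1, which binds viral RNA ends, was at 10.2, 12.3 and 11.4 FPKM in the control libraries and 105, 107.5 and 103 FPKM with siRNA.1. ISG15, a ubiquitin-like modifier, was at 103, 99.5 and 97.75 FPKM in the control libraries and 534.5, 486 and 498 FPKM with siRNA.1. In none of these did any control library come near the siRNA.1 libraries. MX1, OAS1, IFI44L and MX2 rose by 2.28, 2.38, 2.48 and 2.89 on the log2 scale. Members that fell included GBP2 (-0.81), APOBEC3F (-0.75), APOBEC3G (-0.36) and ZC3HAV1 (-0.31), and SLFN5 (-0.06) did not pass. These exceptions were picked out after their values were seen, as was every list member given in the text that is neither among the 3 of its list with the smallest adjusted p nor changed by at least 1 on the log2 scale.

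Promoters of 5 of the raised genes are shown here because each holds the core of the interferon-stimulated response element within 250 bases before its RefSeq start. The letters searched were GAAANNGAA on both strands, and the match is in capitals in each 30-base window of GRCh38.p14, printed 5′ to 3′ along the gene's strand.
ISG15, chr1:1013380-1013409, plus strand: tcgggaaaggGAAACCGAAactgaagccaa
RSAD2, chr2:6865796-6865825, plus strand: agcgggaaacGAAAGCGAAgcgttgcgggg
CXCL10, chr4:76023699-76023728, minus strand: tcatgttttgGAAAGTGAAacctaattcac
IFIT1, chr10:89392498-89392527, plus strand: tagctttagtTTCACTTTCccctttcggtt
B2M, chr15:44711369-44711398, plus strand: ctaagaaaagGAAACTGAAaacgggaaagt
In IFIT1 the match is on the other strand. By the deposited positions, the RSAD2 window also lies within CMPK2 (chr2:6840570-6866635, minus strand), which rose by 2.48. Which of these genes the RSAD2 site belongs to was not tested. Of all 11867 promoter windows from RefSeq that matched a tested gene by symbol, 6.59% held these letters. Among the antiviral effectors 19 of the 27 with a window held them, but only 27 of 38 members had one, so a comparison of shares is void for this list. The same holds for all genes changed by at least 1 on the log2 scale, where 63 of the 301 raised genes with a window and 14 of the 177 lowered ones held the letters. A match is a description of sequence and says nothing of binding.

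Antigen presentation rose with these genes. Of 15 class I genes tested 12 were higher and 3 lower (TAPBP -0.60, PSMB10 -0.41 and ERAP1 -0.21), with a median of 0.88. HLA-B and HLA-C rose by 1.55 and 1.51 on the log2 scale, and the peptide transporter subunit TAP1 by 1.13. Reads of the polymorphic HLA genes may be divided among them, which makes their single values uncertain. Class II genes, normally a feature of professional antigen-presenting cells, started near 0. HLA-DRA was at 0.26, 0.31 and 0.13 FPKM in the control libraries and 4.53, 3.97 and 4.1 FPKM with siRNA.1, and the invariant chain CD74 rose by 1.93. HLA-DPA1 was also called higher, with counts of 3, 1 and 1 in the control libraries and 42, 36 and 36 with siRNA.1. Only 4 of the 10 class II genes listed entered the test. HLA-DPA1, nearly absent from the control libraries, could do so only through the siRNA.1 libraries, so no count over the list is given. The myeloid markers rose in the same libraries, with LYZ at 0.49, 0.07 and 0.39 FPKM in the control libraries and 2.61, 2.64 and 3.12 FPKM with siRNA.1. Their part in the class II result was not tested.

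Chemokines and cytokines moved in both directions, with 8 of 26 higher, 7 lower and a median of -0.07. CXCL10, a chemokine for T cells that interferon induces, was at 9.32, 8.3 and 5.56 FPKM in the control libraries and 80.01, 89.1 and 86.96 FPKM with siRNA.1. CXCL11 rose by 1.52, IL6 by 1.32 and the neutrophil chemokine CXCL2 by 1.20, whereas the monocyte chemokine CCL2 fell by 1.18 and IL23A by 1.14. The NF-kB pathway did not move as a block, since 4 of its 15 genes were higher and 6 lower (6 and 4 on the rescaled FPKM), and the inhibitor NFKBIA, itself a target of NF-kB, fell by 0.48. C1S, a protease of the complement cascade, rose by 2.44, and IL24, a cytokine of the IL-10 family, by 1.15.

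Ligands of the epidermal growth factor receptor (EGFR) rose together. AREG was at 26.4, 28.01 and 27.2 FPKM in the control libraries and 80.98, 72.5 and 75.45 FPKM with siRNA.1. HBEGF was at 12.2, 11.05 and 11.9 FPKM in the control libraries and 29.7, 27.5 and 30.8 FPKM with siRNA.1. EPGN, BTC, EREG and TGFA rose by 1.58, 1.56, 1.00 and 0.46 on the log2 scale, while the receptor EGFR was at -0.01 (edgeR adjusted p 0.857) and the ligand NRG1 fell by 0.28. In all, 10 of 17 genes of the family were higher and 3 lower, with a median of 0.58. The higher members included the ERK phosphatase DUSP4 (1.56), a feedback gene of this pathway.

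Immediate early genes were more often higher than lower, 11 against 6 of 18. DUSP1 was at 3.47, 3.41 and 2.5 FPKM in the control libraries and 10.2, 10.2 and 11.8 FPKM with siRNA.1. FOS, ATF3 and FOSB rose by 1.55, 1.31 and 1.24, and MYC was at 45.6, 45.4 and 44.4 FPKM in the control libraries and 83.4, 83.4 and 81.6 FPKM with siRNA.1. EGR1, which responds to the same signals, fell by 0.96, and JUN and JUNB fell by 0.22 and 0.32. Among targets of YAP, a transcriptional co-activator that responds to cell shape, 8 of 19 were higher and 1 lower. ANKRD1 led them at 1.68, 2.04 and 1.81 FPKM in the control libraries and 10, 8.28 and 10.5 FPKM with siRNA.1. The insulin-like growth factor list had 5 of 9 genes higher and none lower, including IGFBP4 (0.58) and IGFBP3 (0.39).

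Squamous identity genes shifted in both directions, with strong losses in a few leading genes. SOX2 (chr3:181711925-181714436), a lineage factor of squamous cancers in the same arm as LINC00885, was at 10.8, 12.7 and 11.5 FPKM in the control libraries and 3.72, 3.44 and 2.74 FPKM with siRNA.1, a log2 fold change of -1.85 (SE 0.12, edgeR adjusted p 2.02e-52). ZNF750, a factor of terminal differentiation, was at 10.7, 8.82 and 8.85 FPKM in the control libraries and 1.87, 2.12 and 2.03 FPKM with siRNA.1. TP63, the master factor of squamous epithelium, fell by only 0.15, and KLF4 rose by 0.43. Of the 20 lineage factors 8 were lower and 4 higher, a balance that became 5 and 5 when limma was run on FPKM rescaled to the same sum.

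Keratins followed the same mixed course, with 8 of 17 lower and 4 higher (5 and 5 on the rescaled FPKM). Besides KRT5, the decreases were widest in KRT13, the keratin of suprabasal esophageal cells, at 0.87, 1.7 and 1.92 FPKM in the control libraries and 0.27, 0.36 and 0.02 FPKM with siRNA.1, and in KRT15 (-1.48), while KRT6B, a keratin of wounded epidermis, rose by 1.01. KRT14, the usual partner of KRT5, was at 0.21 and did not pass the test. Cornified envelope genes split as well, with 6 higher and 7 lower of 20 (6 and 6 on the rescaled FPKM). The antimicrobial subunits S100A8 and S100A9 fell by 2.49 and 1.5, whereas the elastase inhibitor PI3 and the envelope precursors SPRR2D, SPRR2A and SPRR1B rose by 2.87, 1.67, 1.23 and 1.16. PI3 in siRNA.1 replicate 3 (7.38 FPKM) was above the other two (3.07 and 2.95 FPKM). SPRR2 genes are near-identical copies, so their single values are uncertain. CALML5, a calmodulin-like protein of keratinocytes, was at 15.8, 13.4 and 15.3 FPKM in the control libraries and 2.51, 3.42 and 3.8 FPKM with siRNA.1.

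Protease inhibitors of clade B showed opposed changes among neighbours in the genome. SERPINB3 was at 4.28, 4.89 and 3.31 FPKM in the control libraries and 0.92, 0.3 and 0.5 FPKM with siRNA.1, and its near-identical copy SERPINB4 fell from 101 counts over the control libraries to 1 count, a ratio of 0.00955 (95% counting interval 0.00024 to 0.0545). SERPINB13 fell by 2.25. SERPINB2, an inhibitor of plasminogen activators, was at 84.7, 77.45 and 78.4 FPKM in the control libraries and 171, 174 and 178 FPKM with siRNA.1. SERPINB4, at a mean of 0.01 FPKM with siRNA.1, entered the test only through the control libraries, so no count over the 10 genes is given.

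**Figure D2:**
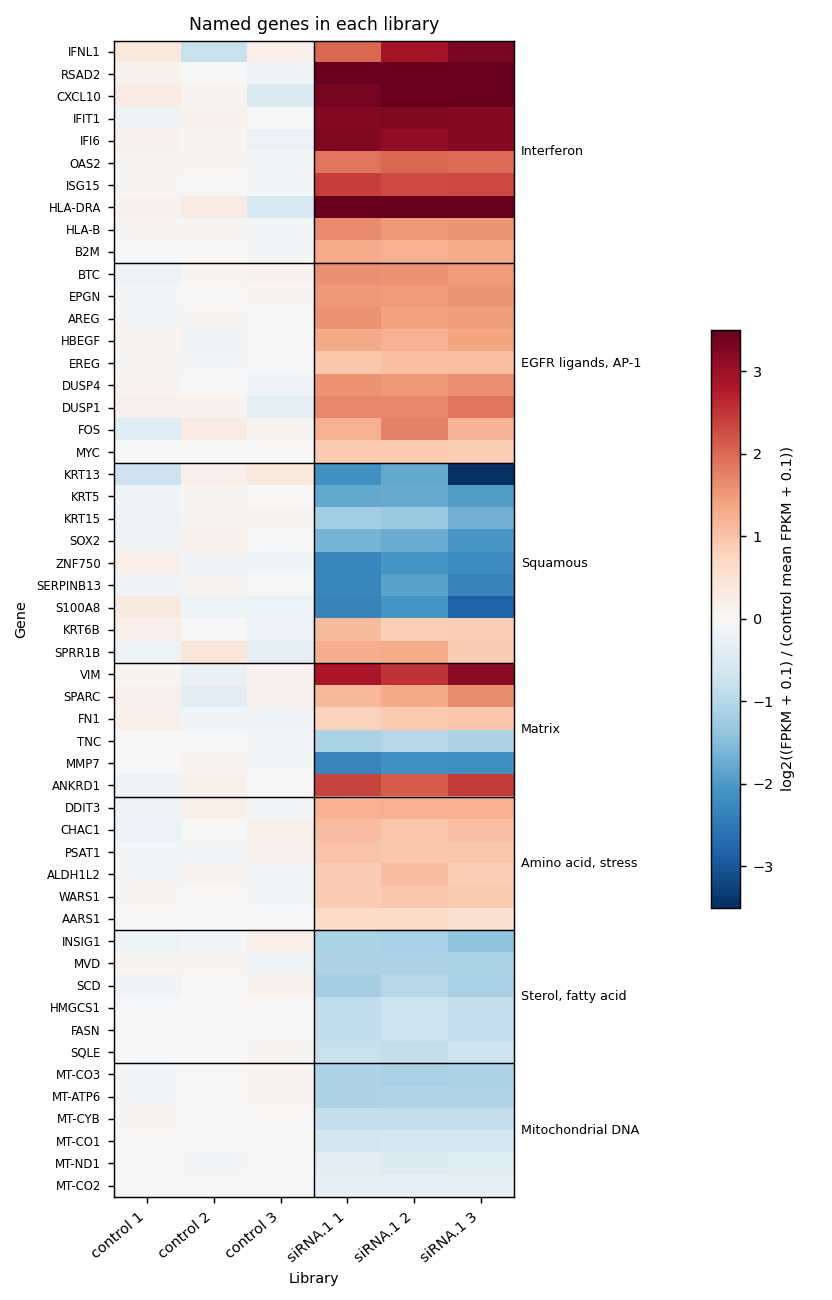
Rows are named genes and columns the 6 libraries, coloured by log2 of (FPKM + 0.1) over (control mean FPKM + 0.1), with the colour scale ending at 3.5 in either direction. Within each row the 3 siRNA.1 libraries share a colour, red (higher) for genes such as RSAD2 and blue (lower) for genes such as KRT13, while the control libraries are near white.

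Matrix and junction genes differed within families. VIM, the intermediate filament of mesenchymal cells, rose from near 0 and was at 0.15, 0.1 and 0.16 FPKM in the control libraries and 1.61, 1.27 and 2.03 FPKM with siRNA.1. SPARC, a secreted matrix protein, rose by 2.18, and fibronectin (FN1) was at 165, 136 and 136 FPKM in the control libraries and 253, 275 and 278 FPKM with siRNA.1. Tenascin C (TNC) was at 22.3, 22.3 and 21.5 FPKM in the control libraries and 10.2, 11.3 and 10.4 FPKM with siRNA.1, a decrease of 1.08. Among mesenchymal and matrix genes CDH2 (0.09) and SNAI2 (0.16) did not pass the test. SPARC, at a mean of 0.08 FPKM in the control libraries, entered the test only through the siRNA.1 libraries, so no count over that list is given. MMP7, a matrix metalloproteinase, was at 17.9, 19.4 and 17.2 FPKM in the control libraries and 3.57, 4.09 and 4 FPKM with siRNA.1, in a list of metalloproteinases and their inhibitors with 5 higher and 7 lower of 18 (6 and 4 on the rescaled FPKM). The laminin-332 chains LAMA3 and LAMB3 rose by 0.83 and 0.55, as did their hemidesmosomal neighbour COL17A1 (0.90), whereas integrins ITGB8 and ITGAV fell by 0.88 and 0.74, so that the laminin and integrin list had 8 higher and 9 lower of 20 (7 and 5 on the rescaled FPKM). Desmosomal and adherens junction genes were lower in 8 and higher in 2 of 15 (3 and 3 on the rescaled FPKM).

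Developmental signalling genes leaned lower. In the WNT and TGF-beta list 10 of 23 were lower and 3 higher, led by ID1, a target of BMP signalling, at 26.9, 31.1 and 26.8 FPKM in the control libraries and 10.6, 8.86 and 7.01 FPKM with siRNA.1. WNT4 was at 2.9, 2.91 and 3.69 FPKM in the control libraries and 0.74, 0.32 and 0.96 FPKM with siRNA.1, outside that list. The Notch receptors NOTCH3 and NOTCH1 fell by 1.01 and 0.46, and LFNG, which glycosylates Notch, by 1.20, while the ligand DLL4 rose by 0.86. Together 8 of 16 Notch genes were lower and 4 higher.

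Many genes of the integrated stress response and amino acid supply rose. Of 18 regulators 12 were higher and 1 lower (PPP1R15B, -0.35). DDIT3, the factor CHOP, rose by 1.23, NUPR1 by 1.84 and TRIB3 by 0.86, and CHAC1, which degrades glutathione, was at 9.7, 11.4 and 12.7 FPKM in the control libraries and 23.96, 21.85 and 23.3 FPKM with siRNA.1. ATF4 itself rose by 0.25. Of 20 enzymes of serine, asparagine, proline and one-carbon synthesis 11 were higher and 2 lower, among them PSAT1, of the serine pathway, at 71.4, 70.8 and 81.9 FPKM in the control libraries and 149.5, 143 and 147 FPKM with siRNA.1, and ALDH1L2 (0.93) and ASNS (0.66). The cystine transporter SLC7A11 rose by 0.85 and the glutamine transporter SLC1A5 by 0.62, within a list of 20 transporters with 9 higher and 4 lower.

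Of the 37 enzymes that load tRNAs, 17 were higher, 2 lower (QARS1 -0.39 and IARS2 -0.30) and 18 did not pass the test, with a median of 0.16. WARS1, which interferon also induces, was at 49.3, 47.4 and 46.9 FPKM in the control libraries and 89.3, 92.4 and 89.8 FPKM with siRNA.1. AARS1, MARS1 and CARS1 rose by 0.60, 0.47 and 0.5. The purely mitochondrial enzymes among those raised were LARS2 (0.53) and TARS2 (0.18). The unfolded protein response of the endoplasmic reticulum, by contrast, had 3 of 25 genes higher and 8 lower, with the chaperone HSPA5 at 0.05, which did not pass the test (7 higher and 3 lower on the rescaled FPKM).

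Windows of 3 promoters are shown because they hold the amino acid response element, the site class that ATF4 binds. The letters searched were TGATGNAA on both strands, in capitals.
ASNS, chr7:97872458-97872487, minus strand: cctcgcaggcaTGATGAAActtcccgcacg
CHAC1, chr15:40953251-40953280, plus strand: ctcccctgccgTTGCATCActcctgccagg
AARS1, chr16:70289675-70289704, minus strand: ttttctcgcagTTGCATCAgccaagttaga
In CHAC1 and AARS1 the match lies on the other strand. Of all promoter windows 1.75% held these letters, and of the 30 tRNA synthetase genes with a window 7 did (23.3%). Not every member of that list had a window, and the list was written from recall. The share is a description of sequence and was not tested against which members rose.

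Sterol synthesis fell nearly as a whole. Of 25 genes 23 were lower, none was higher, CYP51A1 and PMVK did not pass, and the median was -0.62. HMGCS1, which makes the precursor of mevalonate, was at 55.3, 55.3 and 55.1 FPKM in the control libraries and 30.5, 32.6 and 31.05 FPKM with siRNA.1. The groups did not overlap. MVK, MVD and INSIG1 fell by 1.32, 1.14 and 1.25. The transcription factor SREBF2 fell by 0.37. Fatty acid synthesis followed, with 12 of 17 lower and 2 higher. SCD, which desaturates stearate, was at 123, 133 and 146 FPKM in the control libraries and 59.7, 68.3 and 61.3 FPKM with siRNA.1, and FASN and PNPLA3 fell by 0.84 and 1.03, while the ATP-citrate lyase gene ACLY was at -0.04 and did not pass.

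The CCAAT box, a promoter element bound by NF-Y, is shown in 2 of these promoters, with the letters CCAAT or their complement in capitals.
HMGCS1, chr5:43313495-43313524, minus strand: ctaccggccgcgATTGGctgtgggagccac
MVD, chr16:88663159-88663188, minus strand: ggctcgcacgggCCAATcctgtggtagcgc
These letters were in 36.3% of all promoter windows and in 15 of the 18 sterol genes with a window, but 18 of 25 is too few for a comparison of shares. The letters TCACNCCAC, one form of the sterol regulatory element, were in 1.1% of all windows, in 1 of the 18 sterol genes and in 0 of the 15 fatty acid genes with a window.

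All 15 mitochondrially encoded genes of the list fell, with a median of -0.63, except that limma after quantile normalization, which sets the top ranks equal by construction, gave 6 of them values between 0.00 and 0.19. The size differed along the mitochondrial genome. MT-CO3, MT-ATP8, MT-ATP6 and MT-ND6 fell by 1.13, 1.12, 1.09 and 1.08, whereas MT-CO2 fell by 0.31 and MT-ND4 by 0.40. The ribosomal RNA MT-RNR2 fell by 0.71. MT-CO2 and MT-ATP8 are neighbours on the same strand. Over the whole mitochondrial chromosome 16 of 18 tested genes were called (88.9%). Nuclear pseudogenes carry copies of these genes, so that reads can be shared.

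Genes that maintain mitochondrial DNA and RNA did not fall as a group. Of 21 genes 5 were higher and 2 lower, the helicase TWNK rising by 0.86 and the exoribonuclease PNPT1, which interferon induces, by 0.80. POLRMT (0.12) and TFAM (-0.10), the polymerase and its activator, did not pass the test. The nuclear subunits of the respiratory chain had 6 higher and 15 lower of 52 and a median of -0.04, a balance that became 14 higher and 5 lower on the rescaled FPKM.

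**Figure D3:**
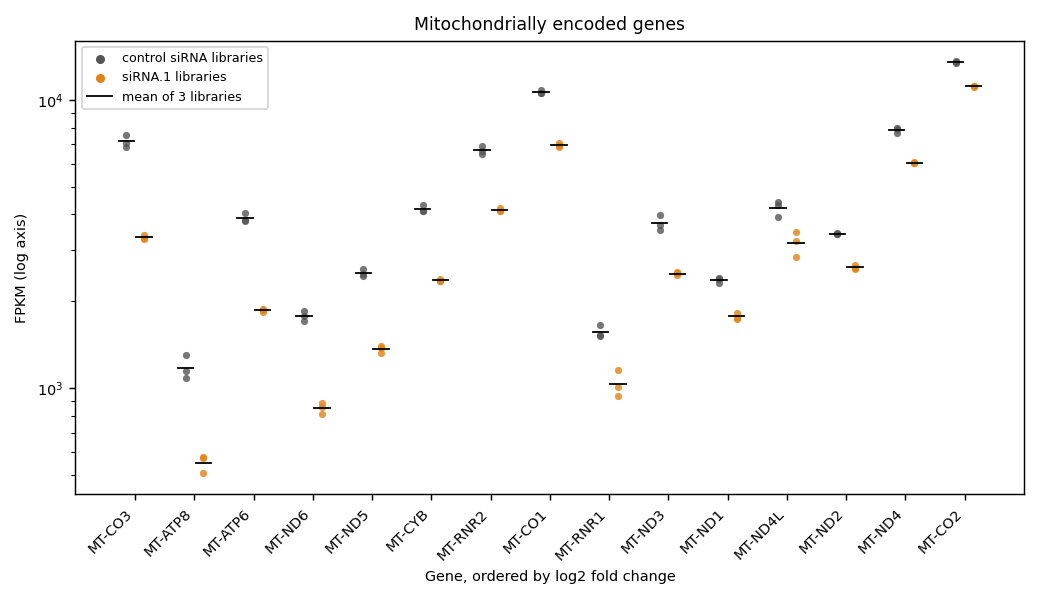
For each mitochondrially encoded gene, points give the FPKM of each library (log axis) for control siRNA and siRNA.1, with the mean of each group. In FPKM the siRNA.1 points of all 15 genes lie below the control points, by the widest log2 distance for MT-CO3 at the left.

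Ribosomal protein genes changed by small amounts. Of 74 cytosolic ribosomal protein genes 7 were higher and 26 lower, with a median of -0.06, but limma gave 6 higher and 15 lower on log2(FPKM + 0.1) and, once FPKM were rescaled, 19 higher and 8 lower, so its direction turned with that scaling. RPS2, RPSA and RPLP0, the members with the smallest adjusted p, fell by 0.36, 0.32 and 0.31. Heat shock genes had 5 higher and 12 lower of 22 (7 and 5 on the rescaled FPKM), with the small chaperone HSPB8 lower by 0.88 and the mitochondrial chaperonin HSPD1 higher by 0.5. Splicing factors had 4 higher and 11 lower of 28, and 6 higher and 1 lower on the rescaled FPKM. Constitutive proteasome genes had 5 higher and 6 lower of 31 (6 and 0 on the rescaled FPKM), and autophagy and lysosome genes 5 and 5 of 28, with the receptor SQSTM1 higher by 0.44 and LAMP2 lower by 0.41.

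Energy genes gave a few wide changes in mixed lists. Glycolysis had 6 higher and 9 lower of 23 (8 and 5 on the rescaled FPKM). The glucose transporter SLC2A3 was at 1.19, 1.19 and 1.06 FPKM in the control libraries and 2.14, 2.46 and 2.26 FPKM with siRNA.1. Lactate dehydrogenase A (LDHA) fell by 0.34. Hypoxia genes had 4 higher and 5 lower of 15, with VEGFA higher by 0.52 and BNIP3L and NDRG1 lower by 0.63 and 0.51. Wider changes were in sparse genes. ANGPTL4, an inhibitor of lipoprotein lipase, rose by 1.20, while ANKRD37 and the oxygen sensor EGLN3 fell by 1.66 and 1.11. Their means over the 6 libraries were only 0.495, 0.343 and 0.23 FPKM, so these values are uncertain. NRF2 targets had 6 higher and 8 lower of 26 (7 and 5 on the rescaled FPKM), with PGD, of the pentose phosphate pathway, lower by 0.86 and TXNRD1 higher by 0.44.

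Cell cycle genes changed by small amounts. Of 36 mitotic genes 20 were lower and 2 higher (AURKB 0.15 and NDC80 0.27), with a median of -0.18. The widest decreases were in NUF2 (-0.44), of the kinetochore, and PLK4 (-0.43), of the centriole, and TOP2A fell by 0.31. CDK1 (0.05) and PLK1 (-0.01) did not pass. DNA replication genes were split, with 8 higher (MCM3, 0.30) and 10 lower of 41, and 11 and 3 on the rescaled FPKM. Among G1 regulators CDK6 and E2F1 rose by 0.65 and 0.42, and CCND1, RB1 and the inhibitor CDKN2C fell by 0.31, 0.37 and 0.73. CCAAT was found in 22 of the 29 mitotic promoters with a window (75.9%), and the E2F letters TTTCCCGC or TTTGGCGC in 14 of the 34 replication promoters (41.2%, against 3.58% of all). Not every member of these lists had a window, and the lists were written from recall. These shares describe sequence and were not tested against which members changed.

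Genes of single-strand break repair and of homologous recombination were called at a share near the 29.5% of all genes. That was below the 41.9% of protein-coding genes tested. Checkpoint genes were called more often than either of these shares. In the list of PARPs, PAR erasers and single-strand break repair, 2 of 27 were higher (PARG 0.29 and APTX 0.26) and 5 lower, besides PARP1 the ligases LIG1 (-0.44) and LIG3 (-0.44), APEX2 (-0.30) and TDP1 (-0.25). On the rescaled FPKM 4 were higher and 1 lower, and without control replicate 2 or siRNA.1 replicate 3 the split was 3 and 3. PARP2 (0.16) and HPF1 (-0.08) did not pass the test. The list of PARPs that interferon induces, which also holds their partner DTX3L, differed from this, with 5 of 6 higher and 1 lower. PARP9 rose by 1.07, PARP14 by 0.72 and DTX3L by 0.75. Homologous recombination genes had 5 higher and 3 lower of 26, a balance that turned to 2 and 3 without siRNA.1 replicate 2 and to 1 and 3 with DESeq2. Checkpoint genes had 6 higher (30%) and 7 lower (35%) of 20, against 14.6% and 14.9% of all genes tested, and 8 and 1 on the rescaled FPKM. HUS1 fell by 0.56 and CDC25A rose by 0.71.

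Targets of p53 were mixed, with 6 higher and 9 lower of 28, 8 and 8 without siRNA.1 replicate 2, and 8 and 5 on the rescaled FPKM. GDF15, a stress cytokine, was at 11.8, 10.2 and 10.4 FPKM in the control libraries and 30.3, 29.8 and 27.7 FPKM with siRNA.1. CDKN1A was at 71.3, 64.4 and 63.8 FPKM in the control libraries and 58.1, 56.8 and 54.8 FPKM with siRNA.1, MDM2 fell by 0.23 and TP53INP1 by 1.01. Replication-dependent histones, whose transcripts mostly lack poly(A) tails, had 5 of 15 higher and none lower, led by H2AC6 at 2.81, 4.04 and 2.38 FPKM in the control libraries and 9.79, 7.72 and 8.86 FPKM with siRNA.1. Histone genes are near-identical copies, and poly(A) capture sees only part of their RNA. Of 13 genes of RNA interference 1 was higher (XPO5, 0.30) and 3 lower (AGO4 -0.33, AGO3 -0.31 and TNRC6A -0.21), or 3 and 0 on the rescaled FPKM, whereas AGO2 (0.09) and DICER1 (-0.06) did not pass.

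Genes listed around LINC00885 on 3q26 to 3q29 leaned lower, with 24 of 48 lower (50%) and 8 higher (16.7%) and a median of -0.18. Over all tested genes of chromosome 3, 14.7% were lower and 14.6% higher. Of all protein-coding genes tested 21.7% were lower and 20.2% higher. Among genes with a mean count of 1000 or more, 29.9% were lower and 28.2% higher. The list was written from recall and not drawn by position from all tested genes, so its shares are not those of the region. SOX2 had the widest decrease, and DLG1 and USP13 fell by 0.71 and 0.69. LAMP3, a lysosomal protein that interferon induces, was the widest exception at 7.29, 6.2 and 6.3 FPKM in the control libraries and 25.7, 24.6 and 27.04 FPKM with siRNA.1.

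The table's own annotation grouped the same calls by its terms, a second description of them and not separate evidence. Terms of apoptosis and cell death were left out. In the ranking, a term was passed over where it shared most of the smaller term's members with one already taken. The ranks below are among the terms kept. A biological process of the Gene Ontology (GO_BP) was given for 13268 of the tested genes (62%) and a pathway for 8720 (40.7%). Over the 984 processes with 20 to 200 tested members, the median share of members higher was 19.2% (quartiles 14.3% and 25%) and lower 22.9% (17.9% and 28.5%). Both medians were above the 14.6% and 14.9% of all genes tested. The type I interferon signaling pathway had the highest share raised, 35 of 56 (62.5%), followed by negative regulation of viral genome replication with 22 of 43 and interferon-gamma-mediated signaling with 25 of 50. Outside immunity the processes raised most were motor neuron axon guidance (11 of 22, including SEMA3A and CHN1), tRNA aminoacylation for protein translation (18 of 37) and protein export from nucleus (15 of 34, including ADAR and XPO6).

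Among processes that fell, regulation of cholesterol biosynthetic process had 26 of 32 members lower (81.2%) and cholesterol biosynthetic process 21 of 36. Next came negative regulation of peptidyl-serine phosphorylation with 10 of 21. Hair follicle development had 13 of 28 lower, including LAMA5 (-0.65), PDGFA (-0.88) and TGFB2 (-0.59), and blastocyst hatching 11 of 24. Glycosaminoglycan catabolic process had 10 of 22 lower, among them the proteoglycans AGRN, GPC1 and HSPG2. The semaphorin-plexin signaling pathway had 13 of 29 lower, among them PLXNB2, SEMA3F and SEMA4A, and melanosome transport 9 of 20, including RAB27B.

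In the Pathway column, 276 pathways of the same size had a median share of 17.3% higher (quartiles 13.6% and 21.5%) and 27% lower (21.6% and 30.9%). The highest shares raised were in viral protein interaction with cytokine and cytokine receptor (26 of 64) and cytosolic DNA-sensing (22 of 55). Ribosome biogenesis in eukaryotes had 48 of 137 higher and 8 lower, among them NOL6 and EIF6, although the entry also holds MAFF, which is not known for that process. Steroid biosynthesis had 15 of 22 lower (68.2%), propanoate metabolism 20 of 37, beta-alanine metabolism 14 of 27 and biosynthesis of unsaturated fatty acids 11 of 26. Amino sugar and nucleotide sugar metabolism had 19 of 44 lower, including GNE (-0.79), the enzyme that starts sialic acid synthesis, and UGP2 (-0.59). Vasopressin-regulated water reabsorption had 18 of 42 lower, including the water and glycerol channel AQP3 (-0.62). The annotation is loose and terms share genes. When terms of 10 to 500 members were ranked instead, 14 of the 16 pathways were still among those ranked highest but only 2 of the 16 processes, type I interferon signaling and regulation of cholesterol biosynthetic process.

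**Figure D4:**
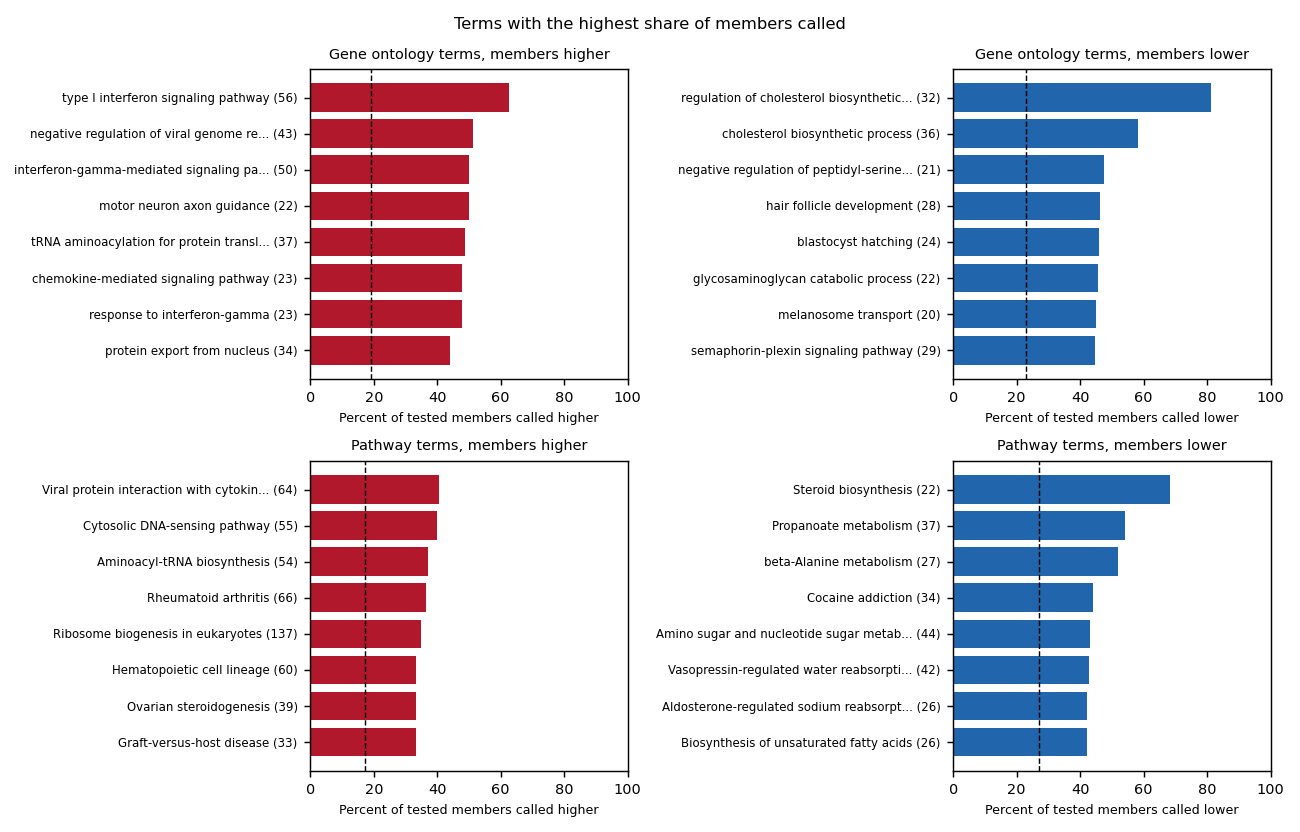
For each term ranked highest in the GO_BP and Pathway columns, bars give the percent of tested members called in the direction of the panel, numbers in brackets the members tested, and dashed lines the median share over all terms of that column. Regulation of cholesterol biosynthetic process (81.2% lower) and type I interferon signaling (62.5% higher) reach farthest from the medians.

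A direct test of siRNA.1 against siRNA.2 showed which of the named changes were of unequal size with the other siRNA. This test called 2613 genes (12.2% of those tested), 1256 higher (5.87%) and 1357 lower (6.34%) with siRNA.1. Of the 38 antiviral effectors 14 were higher with siRNA.1 than with siRNA.2, 2 were lower and 22 did not pass the test. ISG15 was higher by 0.23 and IFIT1 by 0.22 on the log2 scale, while MX1 differed by 0.06 (edgeR adjusted p 0.368). CXCL10 was lower by 0.30, and IFNL1 (-0.08, edgeR adjusted p 0.921) and PTGS2 (0.11, 0.244) did not pass the test.

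Other genes differed widely. TNC was at 23.6 ± 1 FPKM (SD, n = 3) with siRNA.2 and differed by -1.17 (edgeR adjusted p 6.55e-122). HBEGF was at 13.9 ± 0.48 FPKM (SD, n = 3) with siRNA.2 and differed by 1.06 (edgeR adjusted p 5.72e-52). CALML5 was at 11.7 ± 1 FPKM (SD, n = 3) with siRNA.2 and differed by -1.87 (edgeR adjusted p 7.36e-25). For TNC and HBEGF the siRNA.2 mean was thus near the control level, and for CALML5 between the groups but closer to control. ANKRD1 (1.23), SLC2A3 (1.31), DUSP1 (0.76) and IGFBP6 (0.71) were higher with siRNA.1, and SOX2 (-0.98), MMP7 (-0.91), ZNF750 (-0.73), ALDH1A3 (-0.67) and KRT5 (-0.50) were lower. AREG (0.09), VIM (0.14) and SCD (-0.06) did not pass the test of the difference. PARP1, at 22.7 ± 0.87 FPKM (SD, n = 3) with siRNA.2, was lower with siRNA.1 by 0.34. Its siRNA.2 mean lay above the control mean of 19.4 FPKM, and its siRNA.1 mean of 18.2 FPKM lay below it. The small decrease of PARP1 with siRNA.1 was thus not seen with siRNA.2. A cause of these differences, such as the sequence of either siRNA, was not tested.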

How the data were processed

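RNA-seq libraries were made from poly(A)+ RNA of TE13 cells. Per the labels and the methods of the study, reads were aligned with STAR to GRCh38, counted per gene with featureCounts and compared with DESeq2, with versions and strand setting not given in the sources used here. The authors deposited unnormalized counts for each gene together with FPKM, which scale the counts by exonic length and library total. Here the counts of the 6 libraries were tested with edgeR 4.0.16 in R 4.3.3 (quasi-likelihood test, TMM factors between 0.9891 and 1.016), without covariates. The 21402 genes averaging 0.1 FPKM or more entered the fit, p-values were adjusted by the Benjamini-Hochberg method over all of them, and genes under 0.05 were called higher or lower. Log2 fold changes are siRNA.1 minus control siRNA and come from this fit, with the SE obtained from the fold change and its F statistic. Comparison with siRNA.2 used a fit of all 9 libraries. Groups were taken from the library labels. The members and the gene lists were chosen with earlier results of these data known.

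Named genes were, in each direction, the 12 with the largest log2 fold change and the 12 with the largest FPKM difference (with a symbol, at least 1 FPKM on average, an adjusted p under 0.05 and groups that did not overlap), for each list the 3 with the smallest adjusted p and any changed by at least 1 on the log2 scale, for each ranked term its 3 strongest members, and LINC00885, PARP1, XRCC1, FOXA1 and SOX2. Terms were ranked by the share of their 20 to 200 tested members called in a direction, so they were chosen by these values. Overlapping terms were passed over, and those of apoptosis and cell death left out. Gene positions are those the authors deposited, with the annotation release not given in the sources used here, and gene types are from GENCODE release 44. Promoter windows (250 bases before to 50 after the start) are from RefSeq on GRCh38.p14 and were matched by symbol for 11867 of 17195 symbols (69%). Counting intervals are 95% and, like floors, cover counting error only. Alternatives used limma 3.58.1 on log2(FPKM + 0.1), DESeq2 1.42.0, other scalings and filters, a replicate block and leaving out each library. The scripts were checked on simulated counts. Some genes that the rule names are not reported here. The siRNA sequences were not used here. Since all samples are of 1 cell line, p-values measure the spread between its cultures.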

Additional observations from a re-analysis of the deposited data

How the results depend on the processing

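The number of genes called, 6310, lay between 5338 and 5787 when any 1 library was left out. It was 6294 with RLE size factors, 6281 with library totals alone, 6295 with upper-quartile factors, 5948 without a filter on low values and 6462 with all 9 libraries in the fit. DESeq2 called 2684 higher and 2694 lower genes and left 5394 adjusted p empty. The genes called lower were fewer with limma, 1944 on log2(FPKM + 0.1), 1906 on log2(FPKM + 1) and 1329 on FPKM rescaled to the same sum, and asking for a change of at least 1 on the log2 scale left 486 higher and 328 lower. The replicate numbers do not pair the samples, since deviations of same-numbered libraries correlated at -0.125, -0.0507 and -0.0117, and a replicate block gave 5911 calls, 2944 higher and 2967 lower.

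For the 313 named genes, 5770 of 5907 values under an alternative kept direction and call, 121 lost the call, 6 gained it and 10 changed sign. After quantile normalization limma gave MT-CO1 0.00, MT-CO2 0.00, MT-ND4 0.00, MT-ND4L 0.08, MT-ND2 0.09 and MT-RNR2 0.19, because that step sets the highest ranks equal in every library. CD8A, which was not called, ranged from -0.22 without control siRNA replicate 2 to 0.28 without control siRNA replicate 3, and PAX5, also not called, from -0.14 without siRNA.1 replicate 3 to 0.72 without control siRNA replicate 1. Counts on gene lists kept within 1.5 times their value in 1752 of 1957 cases. Counts under 10 per gene limited the calls, and LINC00885 itself is among such genes.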
